A study of Papio hamadryas with 17 samples.

Results

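The levels of 6 renin-angiotensin genes were followed in the kidney cortex of baboons (Papio hamadryas) kept for life on a low-salt chow. The members were chosen by symbol. They are AGT, which encodes angiotensinogen, AGTR1, the type 1 angiotensin II receptor, ATP6AP2, the prorenin receptor, and the membrane peptidases ENPEP, MME and ANPEP. These 6 genes are among 13857 in the table of females, and 5 of them are among the 9825 genes found in the tables of both sexes. AGT was analysed in females alone, because it is not among the rows of the male table held here.

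RNA of needle biopsies taken under ultrasound guidance was sequenced from 8 females aged 15 to 19 and 9 males aged 6 to 13, with 1 library per animal and no unit of age in the labels. All animals shared the diet, the colony and the sedation with ketamine and isoflurane, none was treated, and the biopsies were frozen in liquid nitrogen. There was no group on another salt intake, so the levels describe 1 diet. Every female was older than every male and library names also separated the sexes, so sex, age and library name cannot be told apart.

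The renin-angiotensin system begins with angiotensinogen, from which angiotensin I and then angiotensin II are cut. Angiotensin II constricts vessels and raises sodium reabsorption in the tubule through the type 1 receptor. On the brush border of the proximal tubule, aminopeptidase A (ENPEP) trims angiotensin II to angiotensin III, aminopeptidase N (ANPEP) trims angiotensin III further, and neprilysin (MME) cleaves angiotensin I as well as natriuretic peptides. LRP2, which encodes the endocytic receptor megalin, is a gene of the proximal tubule and served as the reference for that segment.

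Female 1, female 2 and male 6 carried skeletal muscle RNA. The summed signal of ACTA1 and CKM, the members of a muscle list of 9 genes that both tables hold, was between 54348 and 111219 in these 3 libraries and between 0.955 and 21.9 in the other 14. The results below rest on those 14 libraries, from 6 females and 8 males, and the 3 libraries are given beside them. Signal is the deposited value per transcript less its offset of 1, summed per gene. Summed over all genes in both tables it was between 259197 and 440508 in the 14 libraries and between 540174 and 670142 in the 3. Read totals are not part of the tables, so depth and counting error are unknown. Of the kidney lists, all 10 proximal tubule, 4 thick limb and 7 collecting duct genes were found in both tables, but 1 of 5 podocyte genes (PODXL) and 2 of 5 endothelial genes (PECAM1 and KDR) were.

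Female 3 stood apart within the 14 libraries. Its summed proximal tubule signal was 178.0, against 1125 or more in the other 5 females and 3212 or more in the 8 males. Its summed thick limb signal of 11495 and its collecting duct signal of 1016 were the highest of the 14. UMOD made up 11030 of that thick limb sum, while SLC12A1, KCNJ1 and CLDN16 were higher in male 1. Of the collecting duct genes, AQP2, AQP3 and FXYD4 were highest in female 3. SLC4A1, SCNN1B, ATP6V1B1 and SLC26A4 were higher in male 4. The 3 libraries with muscle RNA had a proximal tubule signal of 147.2 to 232.9. Results that rest on female 3 are therefore given with and without it. In bulk tissue, fewer cells of a type and less RNA per cell cannot be told apart.

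AGT lies at 199616782 to 199629586 on the minus strand of sequence NC_018152.2 (gene3096), with 2 transcripts whose 5′ ends are 480 bases apart. Coordinates are those of the deposited tables, and the genome build is not given in the sources used here. Its signal was listed at 0 in female 3 and female 6, and was 0.22 in female 4, 0.67 in female 7, 1.17 in female 8 and 2.27 in female 5. Female 1 and female 2, the libraries with muscle RNA, gave 1.42 and 1.26, within the range of the other females. The signal of AGT was thus at or below 2.27 in each of the 8 females. Across the 6 females its level and that of LRP2 gave r = 0.34 and rho = 0.26 (two-sided exact permutation test, p = 0.542 and 0.594).

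**Figure D1:**
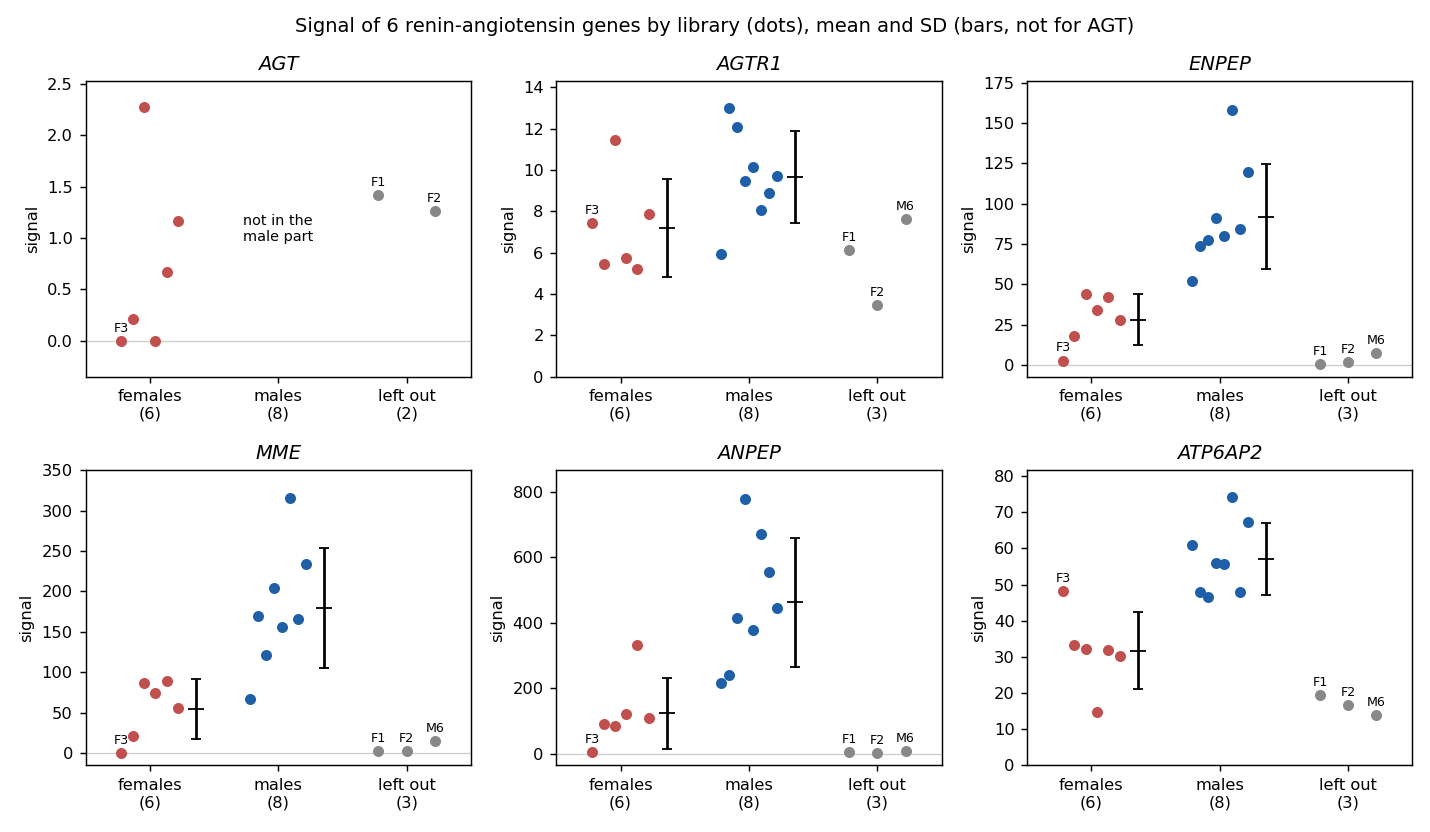
Signal of the 6 genes in each library, on linear axes, for the 6 females, the 8 males and the libraries left out for muscle RNA; dots are libraries and bars are means with SD (none for AGT). F3 marks female 3, which is lowest of the 6 females for ENPEP, MME and ANPEP and highest for ATP6AP2.

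AGTR1, the receptor through which angiotensin II acts on vessels and tubules, varied less than most genes over the 14 libraries. It lies at 137956902 to 138001715 on the minus strand of NC_018153.2 (gene4727). Its signal in the 6 females was 5.22 at the lowest, 6.57 at the median and 11.4 at the highest, and in the 8 males 5.92, 9.59 and 13.0. The sexes overlapped, with 2 of 8 males above the highest female and 3 of 6 females below the lowest male. The 3 libraries with muscle RNA had 6.15, 3.47 and 7.63, so that 9 of the 14 libraries lay above the highest of them. On the log2(signal + 1) scale the SD of AGTR1 over the 14 libraries was 0.39, below the median SD of all 9538 tested genes (0.47), and 64.9% of genes varied more. Within each sex it lay close to the median gene. There 52.5% of genes varied more in the 6 females and 54.9% in the 8 males.

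Females had a mean AGTR1 signal of 7.19 ± 2.35 (SD, n = 6), and males had 9.66 ± 2.22 (SD, n = 8). The log2 difference, female minus male, was -0.40 (95% confidence interval -0.79 to -0.00060), with an adjusted p of 0.105 in limma with Benjamini-Hochberg adjustment over all tested genes. It passed that threshold when female 5 was left out (adjusted p = 0.0320 in limma) or male 1 was left out (adjusted p = 0.0444 in limma). With each library scaled to a common median, the difference was 0.01 in the opposite direction. The median difference of all genes was -0.35 as deposited and 0.03 after that scaling.

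The 4 transcripts of AGTR1 share 1 annotated 3′ end, and their 5′ ends lie within 190 bases of each other. Variants X1, X2, X3 and X4 took on average 18.1%, 31.8%, 9.49% and 40.6% of the signal in females and 16.2%, 43.4%, 11.7% and 28.7% in males. The share of X2 ranged from 13.2% to 89.2% and that of X4 from 1.79% to 72.5% between libraries. The signal of X1 relative to X3 was the same in 11 of the 14 libraries, at 1.527 within 1%. X2 relative to X3 was 2.34 within 1% in 7 of the 14. Equal ratios in separate animals were thus frequent, and how the reads of the gene were divided among its transcripts was not tested. Between the sexes, 0 of the 6 transcripts of AGTR1 and ENPEP differed in share (two-sided exact permutation test over 3003 groupings, adjusted over all transcripts), and 0 passed an unadjusted p of 0.05. The same test called 3.45% of all transcripts.

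ATP6AP2 encodes the prorenin receptor, which is also an accessory subunit of the vacuolar proton pump. It lies at 37914017 to 37940652 on the plus strand of NC_018172.2 (gene32655) and has 1 transcript. Its signal was 14.6, 32.1 and 48.1 at the lowest, median and highest of the 6 females, and 46.5, 55.8 and 74.1 in the 8 males. The highest female was female 3, and without it all 8 males lay above all females. The share of all genes with males wholly above females was 11.9% over the 14 libraries and was not computed without female 3. In limma without female 3, 39.4% of all genes passed as higher in males. The libraries with muscle RNA had 19.4, 16.7 and 13.8, and 13 of the 14 libraries lay above the highest of these. Females averaged 31.7 ± 10.6 (SD, n = 6) and males 57.0 ± 9.94 (SD, n = 8), 1.84-fold higher in males by the fitted difference (1.37 to 2.48, 95% confidence interval).

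ENPEP, aminopeptidase A, lies at 106205304 to 106289694 on the plus strand of NC_018156.2 (gene10293). Its signal was 2.87, 31.0 and 44.0 at the lowest, median and highest of the 6 females and 51.9, 82.0 and 158.2 in the 8 males. Every male lay above every female, which held for 11.9% of all tested genes. Female 3 had the lowest value, 2.87, and the next lowest female had 18.2. Female 1, female 2 and male 6 had 0.71, 1.89 and 7.34. Over the 14 libraries variant X1 held 97.5% ± 2.02 (SD, n = 6) of the signal among females and 97.7% ± 2.17 (SD, n = 8) among males. In female 1 and female 2, where the gene was low, variant X2 gave 0.70 and 1.87 of the signal. With all 17 libraries the mean share of X1 was thus 73.4% in females and 97.55% in males.

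MME, neprilysin, lies at 131490559 to 131580835 on the minus strand of NC_018153.2 (gene4659), on the same sequence as AGTR1. Its signal was 0.67, 65.1 and 89.3 at the lowest, median and highest of the 6 females and 67.6, 167.8 and 314.9 in the 8 males. Male 1 was the lowest male and lay within the range of the females, and the other 7 males were above all females. Female 3 had 0.67, and the next lowest female 20.8. The libraries with muscle RNA had 2.84, 3.16 and 15.3.

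ANPEP, aminopeptidase N, lies at 64499269 to 64521990 on the minus strand of NC_018158.2 (gene13474). Its signal was 5.96, 99.99 and 330.8 at the lowest, median and highest of the 6 females and 215.5, 429.9 and 779.9 in the 8 males. Female 7, the highest female, lay above male 1 and male 2, and the other 6 males were above all females. Female 3 had 5.96 and the next lowest female 83.4. The libraries with muscle RNA had 4.97, 2.84 and 9.39. Male 5, aged 13 and the oldest of the 8 males, had an ENPEP signal of 79.9, an MME signal of 155.9 and an ANPEP signal of 377.6, each inside the range of the other males.

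Of the 5 members tested between the sexes, 4 were higher in males, ENPEP, MME, ANPEP and ATP6AP2. In the same fit 38.3% of all 9538 genes passed and 36.1% were higher in males, 3439 genes against 212 higher in females. The fitted log2 difference, female minus male, was -1.95 for ENPEP (SE 0.44, adjusted p = 0.00279 in limma). It was -2.34 for MME (SE 0.71, adjusted p = 0.0167 in limma) and -2.43 for ANPEP (SE 0.61, adjusted p = 0.00530 in limma). Without female 3 the differences were smaller, -1.44 for ENPEP, -1.48 for MME and -1.73 for ANPEP, each past the threshold. ATP6AP2 differed by -0.88 (SE 0.20, adjusted p = 0.00292 in limma). LRP2, the reference of the segment, differed by -2.01 (SE 0.44, adjusted p = 0.00224 in limma), which is near the 3 peptidases.

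How many members passed depended on the libraries and the scale. With all 17 libraries 2 passed, ENPEP and MME, where 13.3% of genes passed. With median scaling 2 passed, ENPEP and ANPEP, among 29.4% of all genes, and the calls over all genes were then split evenly, 1421 higher in males and 1379 in females. Upper quartile scaling gave the same 2 members among 29.3% of genes. Median scaling without female 3, chosen after the values were seen, gave 3, ENPEP, ANPEP and ATP6AP2, among 27.8%. The males were also split at 100 by the number in the library name, a cut made here. Against the 5 males below it 2 passed, ENPEP and ATP6AP2, among 20.8% of genes. Against the 3 males above it 3 passed among 32.9%, while MME and AGTR1 did not (adjusted p = 0.0716 and 0.335 in limma). With age as a term 0 of the 5 members passed in limma, 0 had an unadjusted p under 0.05, and 1 of 9538 genes passed (0.0105%). With LRP2 as a term beside sex, also chosen after the values were seen, 1 member passed among 21.2% of genes, ATP6AP2 (-1.31, adjusted p = 0.00782 in limma), and MME and ANPEP stood at 0.73 and 0.16. The mean of the proximal tubule list as a term left the same member among 23.9% of genes, ATP6AP2 at -1.27 (adjusted p = 0.00605 in limma). Each of these fits takes 1 slope for both sexes, while r of ATP6AP2 with LRP2 was -0.72 in females and 0.75 in males. LRP2 did not overlap between the sexes, with 120.9 in the highest female and 133.7 in the lowest male. The difference at an equal level of LRP2 was therefore extrapolated, and these fits were not computed without female 3.

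**Figure D2:**
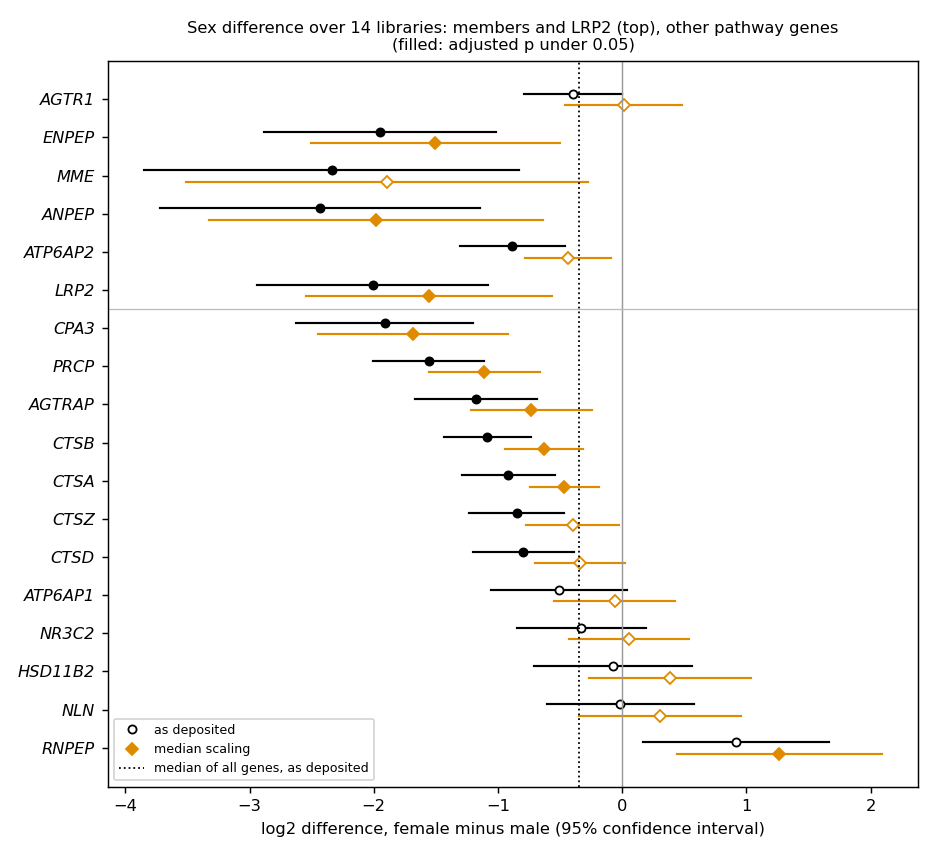
Fitted log2 difference, female minus male, with 95% confidence intervals over 14 libraries, for the 5 members and LRP2 (top) and 12 other pathway genes (below), as deposited (circles) and after median scaling (diamonds); filled marks passed an adjusted p of 0.05. The 3 peptidases and LRP2 lie between -2.43 and -1.95 as deposited, and AGTR1 lies near the dotted median of all genes at -0.35.

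The 3 peptidases followed LRP2 from library to library. Over the 14 libraries the correlation with LRP2 on the log2 scale was r = 0.97 and rho = 0.98 for ENPEP, 0.95 and 0.91 for MME, and 0.96 and 0.94 for ANPEP. The permutation p of r was 1e-05 for each, the smallest that 100000 resamples can give. In limma's fit of every gene on LRP2 their adjusted p-values were 1.3e-08, 1.17e-07 and 3.04e-08, and 18.5% of all genes passed with a positive slope. A higher r than that of ENPEP was found for 0.336% of genes, than that of ANPEP for 0.608% and than that of MME for 1.01%. Without female 3 these shares were 1.91%, 3.69% and 6.00%, at r of 0.93, 0.90 and 0.88, and in the 8 males alone 11.4%, 21.2% and 28.8%. Without female 3 and female 4, the libraries farthest from the median of LRP2, r was 0.89 for ENPEP, 0.81 for MME and 0.89 for ANPEP.

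The relation was then computed within each sex. In the 6 females r was 0.96 for ENPEP, 0.96 for MME and 0.96 for ANPEP (two-sided exact permutation test, p = 0.0125, 0.00694 and 0.00694), and all 3 passed in limma, where 5.74% of genes passed. Without female 3 the calls in females were lost, and the limma slopes had adjusted p-values of 0.695, 0.535 and 0.578 over 5 females. In that fit 0 of 9537 genes (0%) passed and 714 had an unadjusted p under 0.05, so the loss is not particular to the members, whose slopes were 0.56, 1.03 and 0.91. In the 8 males r was 0.81, 0.64 and 0.72 (two-sided exact permutation test, p = 0.0156, 0.0794 and 0.0431). None of the 5 members passed in limma in males, where 3.1% of genes did, and 3 had an unadjusted permutation p under 0.05. Tested as a difference of slopes between the sexes, 0 of 9537 genes (0%) passed in limma and 2198 had an unadjusted p under 0.05, with ATP6AP2 at an adjusted p of 0.153.

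**Figure D3:**
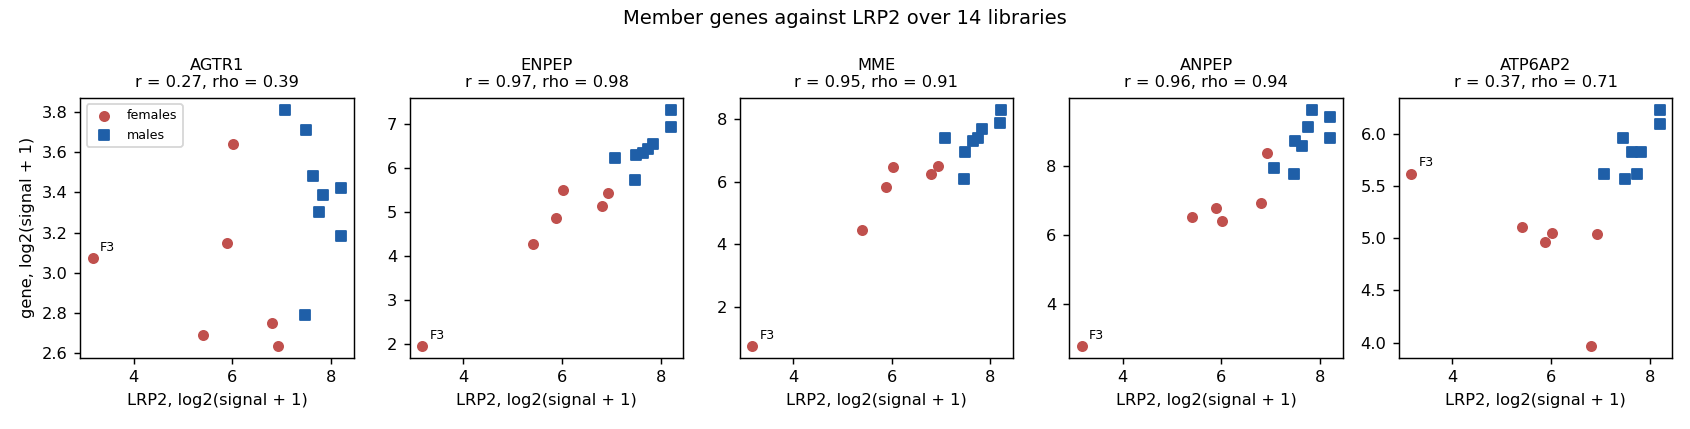
Each of the 5 members tested against LRP2 in the 14 libraries, both as log2(signal + 1), with females as circles and males as squares. ENPEP, MME and ANPEP rise along LRP2 with r of 0.95 to 0.97, whereas AGTR1 and ATP6AP2 have r of 0.27 and 0.37.

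AGTR1 and ATP6AP2 had lower correlations with LRP2. For AGTR1 r was 0.27 and rho 0.39 (permutation test, p = 0.370 and 0.168), and r was -0.23 in females and -0.34 in males. For ATP6AP2 r was 0.37 and rho 0.71 (permutation test, p = 0.184 and 0.00598), with an adjusted p of 0.288 in limma. That value depended on female 3. Without it, with both sexes pooled, r was 0.68 and the adjusted p in limma 0.0121, where 38.1% of genes passed. Within the sexes r was -0.72 in the 6 females and 0.75 in the 8 males (two-sided exact permutation test, p = 0.179 and 0.0320). Over the 5 females without female 3 the limma slope was still negative, at -0.40 (SE 0.28). Centred on the mean of each sex, r over the 14 libraries was -0.50 (permutation test, p = 0.0878). Against the marker lists, ATP6AP2 had r = 0.74 with the thick limb list and 0.80 with the collecting duct list (adjusted p = 0.0272 and 0.0221 in limma), and 0.36 with the proximal tubule list. Of all genes, 10.4% and 9.54% passed against the thick limb and the collecting duct list. Both relations of ATP6AP2 rested on few libraries. Without female 6 and female 7, farthest from the median of the thick limb list, r was 0.44, and without female 6 and male 7, farthest for the collecting duct list, it was 0.43. In the 8 males alone r was 0.38 and 0.44, and in the 6 females 0.86 and 0.95. Against the proximal tubule list, which includes LRP2, 16.3% of genes passed with a positive slope. ENPEP, MME and ANPEP had r of 0.98, 0.97 and 0.98 with that list (0.88, 0.82 and 0.87 in the 8 males, and 0.947, 0.901 and 0.945 without female 3). The same genes also passed against the distal convoluted tubule list, of which SLC12A3 and TRPM6 were found, with r of 0.89, 0.91 and 0.93 (0.80, 0.89 and 0.88 in the 8 males, and 0.77, 0.84 and 0.86 without female 3), where 10.5% of genes passed with a positive slope. AGTR1 passed against none of the 8 lists in limma. Few genes of any kind passed against some of them, 0% for the endothelium list and for the mesangium, smooth muscle and stroma list (1022 and 919 genes at an unadjusted p under 0.05), 0.252% for the immune list and 2.15% for the podocyte list.

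Relative to LRP2 in the same library, ENPEP had the lowest SD of the members over the 14 libraries, while in the 8 males alone that of ATP6AP2 was lower (0.26, against 0.28 for ENPEP). Its ratio to LRP2 ran from 0.295 in male 1 to 0.690 in female 5, with a median of 0.406, and female 3 lay inside that range. The SD of the log2 ratio was 0.33 for ENPEP, 0.59 for ANPEP and 0.99 for MME, and MME fell to 0.50 without female 3, where its ratio was 0.0845. For AGTR1 and ATP6AP2 the SD of the log2 ratio was 1.35 and 1.31, beside 0.39 and 0.59 for the genes alone. Without female 3 it was 0.88 and 0.66, beside 0.40 and 0.61 for the genes alone. LRP2 alone had an SD of 1.36 over the 14 libraries and 0.90 without female 3. The ratio to LRP2 of a gene that varies little therefore carries mainly the spread of LRP2. Ratios were taken from the signal itself, and the SD of a gene alone is that of log2(signal + 1). The ratio depends on the scale of each gene and shows no order of abundance between genes.

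**Figure D4:**
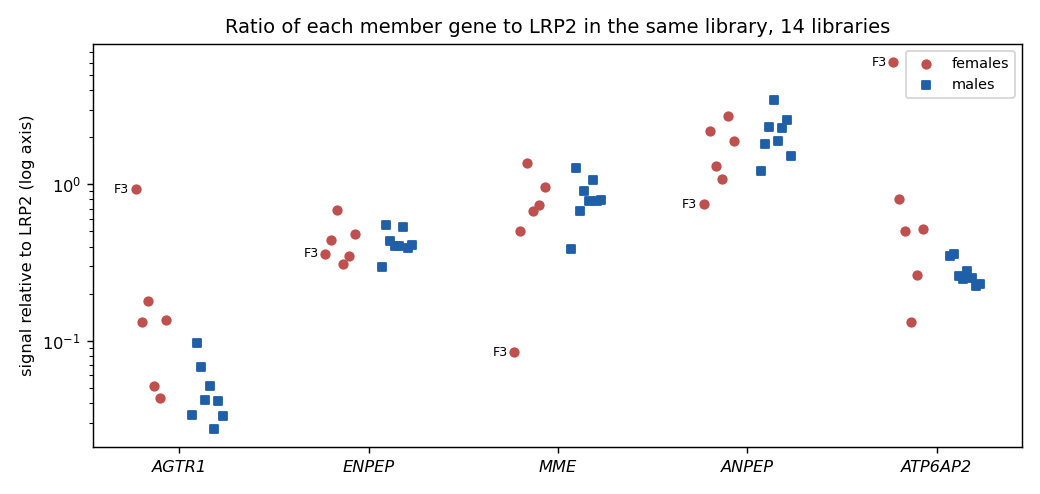
Signal of each member divided by that of LRP2 in the same library, on a log axis, for 6 females (circles) and 8 males (squares); F3 marks female 3. The ratio of ENPEP stays between 0.295 and 0.690 in all 14 libraries, while AGTR1 and ATP6AP2 have their highest ratio in female 3.

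Among the 10 pairs of members, 3 were correlated past the threshold, those among the 3 peptidases. For ENPEP and MME r was 0.98, for ENPEP and ANPEP 0.95 and for MME and ANPEP 0.94, and the larger of the adjusted p-values of each pair's limma fits was 3.58e-08, 3.51e-07 and 2.05e-06. Of all genes, 16.7%, 10.1% and 15.6% passed with a positive slope on ENPEP, MME and ANPEP. On AGTR1 0% passed (382 genes at an unadjusted p under 0.05), so the fits on AGTR1 left its 4 pairs little room to pass. On ATP6AP2 42.5% passed. In the reverse fits AGTR1 did not pass either. Its adjusted p in limma was 0.29 on ENPEP, 0.40 on MME, 0.57 on ANPEP and 0.23 on ATP6AP2. In the 8 males alone r was 0.94, 0.72 and 0.72 (two-sided exact permutation test, p = 0.00191, 0.0389 and 0.0417), and 0 of the 10 pairs passed in limma. Hardly any gene passed in those fits in males, 0% on AGTR1, ENPEP, ANPEP and ATP6AP2 and 0.0315% on MME, with 748 to 1797 genes at an unadjusted p under 0.05. Without female 3, with both sexes pooled, r was 0.96, 0.86 and 0.82. In the 6 females r was 0.997, 0.92 and 0.93. There rho was 0.94, 0.43 and 0.66 (two-sided exact permutation test, p = 0.0167, 0.419 and 0.175). Over the 5 females without female 3 the limma slope of MME on ENPEP was 1.65 (SE 0.25). That of ANPEP was 0.67 (SE 0.57) on ENPEP and 0.41 (SE 0.34) on MME, so the relation of ANPEP within females rested largely on female 3. The genes with the most similar pattern were then taken for each member. Over the 14 libraries ENPEP was nearest to MME (r = 0.98), to SLC13A3, a dicarboxylate transporter (0.98), and to SLC36A2, an amino acid transporter (0.98). MME was nearest to ENPEP, to GPX3, a secreted glutathione peroxidase (0.98), and to ACSM2B (0.98). ANPEP was nearest to PCK2, the mitochondrial phosphoenolpyruvate carboxykinase (0.99), to the transcription factor gene HNF4A (0.99) and to SLC13A3 (0.98). ATP6AP2 was nearest to CAND1, GTF2H1 and HACD3 (0.98, 0.97 and 0.97). AGTR1 had no neighbour as close, with RRBP1, RBM41 and WDR20 at 0.75, 0.75 and 0.72. AGT, over the 6 females and near 0, was close to RNF145 and TBXA2R (0.98 and 0.97).

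In the authors' deposited table of females, MME, LRP2 and variant X1 of ENPEP were assigned to the same co-expression module, named pink, which holds 3.99% of that table's transcripts. In the authors' deposited table of males, MME, ANPEP, LRP2 and variant X1 of ENPEP were all in the blue module, which holds 17.7% of the rows held here. ANPEP was in another module in females, darkturquoise. ATP6AP2 was in tan in females and in brown in males, apart from LRP2 in both. The 4 transcripts of AGTR1 were spread over 4 modules in each of the authors' deposited tables. These modules were made from all animals of a sex, the libraries with muscle RNA included.

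The other genes of the pathway were taken from a list of 24, of which 12 were in both tables. Of these 12, 7 were higher in males and 0 in females, with a median log2 difference of -0.82 beside -0.35 for all genes and 36.1% of all genes higher in males. PRCP, a carboxypeptidase that cleaves angiotensin II, averaged 32.1 ± 9.61 (SD, n = 6) among females and 96.5 ± 27.1 (SD, n = 8) among males (-1.56, adjusted p = 0.000104 in limma). CPA3, the mast cell carboxypeptidase, differed by -1.91 at a mean of 0.655 in females and 4.99 in males. AGTRAP, which encodes a protein that binds the type 1 receptor, differed by -1.18. The lysosomal proteases CTSB, CTSA, CTSZ and CTSD differed by -1.09, -0.92, -0.85 and -0.80. With median scaling 5 of the 12 were higher in males, as were 14.9% of all genes, and 1 was higher in females, as were 14.5%. That gene was RNPEP, an aminopeptidase of which 1 of 4 transcripts was held in both tables. NR3C2, the mineralocorticoid receptor gene, and HSD11B2, which shields that receptor from cortisol, differed by -0.33 and -0.07 and did not pass (adjusted p = 0.305 and 0.866 in limma).

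Another 5 genes of the list were in the table of females alone. Among the 6 females KLK1, tissue kallikrein, ranged from 0.562 to 216.1, LNPEP from 4.45 to 14.9, THOP1 from 6.04 to 12.4, PREP from 4.84 to 7.32 and DPP3 from 4.31 to 8.80. ACE and 6 other genes of the list, AGTR2, MAS1, MRGPRD, CTSG, CMA1 and NPEPPS, had no row under their symbol and were not analysed here.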

How the data were processed

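Stranded mRNA libraries of kidney cortex biopsies were sequenced, 1 per baboon, per the labels' protocols. For each sex the authors deposited a table that gives every transcript a signal in each library and a module colour. Partek is named in the submitters' processing notes, without a version. The build, the aligner and the scaling were not given in the sources used here. The lowest deposited signal is 1, which was subtracted as an offset. The male table ended within a row after 17119 complete rows, against 26644 in the female table, and the rest was not analysed here. Symbols came from the name column, and tables were joined by transcript identifier. Both tables were taken to be on 1 scale. Replicate numbers follow accession order.

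For 9538 genes whose signal reached 1 in 6 or more of the 14 libraries, log2(signal + 1) was fitted with limma 3.58.1 (R 4.3.3) and its mean-variance trend, with Benjamini-Hochberg adjustment over all of them and a threshold of 0.05. Fold changes on this scale understate those of low genes. Correlations have two-sided permutation p-values, exact for 8 or fewer libraries and from 100000 resamples otherwise. The plan adjusted them over the members alone. In its place, limma slopes of all genes on LRP2, on a member or on the mean of a marker list were adjusted over all genes, and a pair took the larger of its 2 adjusted p-values. Scripts were tested on simulated data. The members and lists were chosen with earlier results of these data known. The text names the 6 members, LRP2, list genes that passed and the 3 genes of highest r with each member, except some items that are not reported here. NR3C2, HSD11B2 and RNPEP were named after their values were seen. Python 3.11.15 with numpy 2.4.6 and scipy 1.17.1 was used.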

Additional observations from a re-analysis of the deposited data

Results flagged for a closer look

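On the log2(signal + 1) scale female 3 lay apart from the other 5 females in 3 of 12 sets of values examined. It lay below them by more than Dixon's 95% limit for 6 values. By chance about 5% of sets would hold such a library, and these 3 sets share the library. Its ENPEP signal was 2.87, where the next female had 18.2. Its MME signal was 0.675, where the next had 20.8. Its ANPEP signal was 5.96, where the next had 83.4. In the same library AGTR1 was 7.42 and ATP6AP2 48.1, within or above the range of the other females.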

How the results depend on the processing

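No paired analysis was possible because the replicate numbers follow accession order and females and males are different animals. The number of members higher in males, 4 of 5, was 2 with all 17 libraries, 2 with median scaling and 2 with upper quartile scaling. It was 2 against the 5 males with a library number below 100 and 0 with age as a term. The count was 1 with the proximal tubule list mean as a term and 1 with LRP2 as a term. It ranged from 4 to 5 when single libraries were left out. The pathway count of 7 was 5 with median scaling, 5 with upper quartile scaling, 0 with age as a term (1 at an unadjusted p under 0.05 in limma), 5 with the proximal tubule term, 5 with the LRP2 term and 4 with median scaling without female 3. It was 7 whichever library was left out. The last 3 alternatives were chosen after the values were seen.

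The sex difference changed sign for AGTR1 with median scaling (0.0111, and 0.0299 without female 3). With the proximal tubule term and the LRP2 term it changed sign for MME (0.63 and 0.73) and ANPEP (0.10 and 0.16). Of the 5 members tested against LRP2, 3 passed, 0 in males alone, and 3 to 4 when single libraries were left out. Of the 10 pairs, 3 passed, 0 in males alone, 6 without female 3 and female 4, and 3 to 5 when single libraries were left out. Correlations that changed sign were those of AGTR1 with LRP2 (median scaling -0.018, upper quartile -0.039, centred within sex -0.23, females -0.23, males -0.34) and with ANPEP (-0.041, -0.065, -0.20 and females -0.31), and of AGTR1 with ATP6AP2 (centred -0.016, males -0.58). Those of ATP6AP2 were with LRP2 (centred -0.50, females -0.72), ENPEP (-0.38 and -0.60), MME (-0.47, -0.64 and upper quartile -0.0032) and ANPEP (-0.40 and -0.54). With all 17 libraries the sex difference in share changed sign for AGTR1 variants X3 (8.94 percentage points) and X1 (-0.71). The cause of these changes was not tested. A minimum gene signal of 10 gave no transcript share for a member. Other pseudocounts, no filter and no trend left both sex counts as they were.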
